A study of Mus musculus with 8 samples.

Results

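The genes described here are 40 cell cycle and proliferation genes, 15 of DNA replication and 25 of mitosis, measured in the mouse duodenum, the first segment of the small intestine. They were chosen by symbol from a list of known cell cycle genes, and all 40 were found among the 54532 genes of the deposited table. RNA was sequenced from duodenal tissue of 4 wild-type libraries (WT, Zeb2+/+) and 4 libraries of mice heterozygous for a global Zeb2 knockout (Zeb2+/-). The mice stand for Mowat-Wilson syndrome, and the question of the series was the molecular basis of their poor growth. The loss of a Zeb2 copy is global, so every cell type of the gut wall and every other organ carries it. The labels give no strain, age, sex or sampling position, and do not say that the replicates of a genotype are separate animals, so p-values measure the spread between these libraries, which may in part be technical.

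A dividing cell copies its DNA in S phase and parts the copies in M phase. Before S phase, Cdc6 and Cdt1 load the Mcm2 to Mcm7 helicase onto replication origins, cyclin E helps to start synthesis, and ribonucleotide reductase and thymidylate synthase supply nucleotides. Entry into mitosis is driven by Cdk1 with cyclins A and B, the Aurora and Polo kinases build and correct the spindle, and Cdc20 with Ube2c directs the destruction of the cyclins that ends mitosis. In the small intestine the dividing epithelial cells lie in the crypts, below the differentiated enterocytes of the villi, and germinal centre B cells of gut lymphoid tissue divide as well.

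Library totals, rebuilt from the deposited FPKM (fragments per kilobase of gene, scaled to the library) and gene lengths, were 13579347 to 17137417 assigned reads. All 40 genes were measured in every library, from 40 reads (Kif20a, 1 library) to 3941 reads (Mki67, 1 library), and all passed the minimum mean of 1 FPKM. Zeb2 itself averaged 0.943 ± 0.192 FPKM over the WT libraries and 0.301 ± 0.146 FPKM over the Zeb2+/- libraries (mean ± SD, n = 4), without overlap (exact two-sided permutation test, p = 0.0286, the smallest that 4 against 4 allows; limma without the minimum, adjusted p = 0.0772). The epithelial marker Epcam was at 626.4 to 764.8 FPKM in WT and 692.9 to 1191 FPKM in Zeb2+/-. Epithelial markers (14 genes, Epcam among them) summed to 6193 to 8389 FPKM in WT. In Zeb2+/- libraries 1 to 4 that sum was 4379, 7997, 9017 and 6641 FPKM. Several other measures separated the genotypes without overlap. The mitochondrial share of reads was 4.88% to 5.48% in WT and 7.28% to 8.76% in Zeb2+/-, the summed level of 13 Paneth cell markers was 2331 to 4609 FPKM in WT and 323.3 to 752.3 FPKM in Zeb2+/-, and that of 14 pancreatic acinar markers was 276.2 to 3333 FPKM in WT and 9.26 to 38.8 FPKM in Zeb2+/-. Endothelial markers (12 genes) summed to 31.1 to 38.3 FPKM in WT and 6.98 to 14.7 FPKM in Zeb2+/-.

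The promoters of these genes were examined for the letters of known cell cycle elements. The CHR element (cell cycle genes homology region) is bound by MuvB complexes, which repress genes in resting cells and, with B-Myb and FoxM1, raise them in G2 and M phase; the CCAAT box is bound by NF-Y; and E2F sites are bound by E2F factors, which act at the entry into S phase. RefSeq promoters (GRCm38.p6) were at hand for 34 of the 40 genes, and not for Aurkb, Ccna2, Gins2, Kif20a, Mcm4 and Tpx2. The 250 bases before the RefSeq start were searched on both strands. Birc5, Ccnb2 and Cdc20 are shown as mitosis genes and Mcm6 as a replication gene, 5′ to 3′ along the gene's strand, with matches in capitals.
Birc5, chr11:117848987-117849236, plus strand: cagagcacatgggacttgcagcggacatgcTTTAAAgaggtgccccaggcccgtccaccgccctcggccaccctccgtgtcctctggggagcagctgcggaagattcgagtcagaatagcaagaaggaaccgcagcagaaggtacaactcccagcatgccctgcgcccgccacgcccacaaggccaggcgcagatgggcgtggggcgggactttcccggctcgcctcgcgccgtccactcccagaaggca
Ccnb2, chr9:70421555-70421804, minus strand: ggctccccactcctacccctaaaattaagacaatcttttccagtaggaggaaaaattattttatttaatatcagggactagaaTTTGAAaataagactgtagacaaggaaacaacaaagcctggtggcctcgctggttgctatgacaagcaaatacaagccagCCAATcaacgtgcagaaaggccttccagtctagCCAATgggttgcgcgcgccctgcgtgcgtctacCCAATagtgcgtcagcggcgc
Cdc20, chr4:118437344-118437593, minus strand: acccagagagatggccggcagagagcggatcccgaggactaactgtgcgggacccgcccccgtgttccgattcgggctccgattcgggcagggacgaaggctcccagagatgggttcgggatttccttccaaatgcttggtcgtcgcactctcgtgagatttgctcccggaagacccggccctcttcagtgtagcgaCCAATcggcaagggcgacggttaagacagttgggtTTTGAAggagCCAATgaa
Mcm6, chr1:128359706-128359955, minus strand: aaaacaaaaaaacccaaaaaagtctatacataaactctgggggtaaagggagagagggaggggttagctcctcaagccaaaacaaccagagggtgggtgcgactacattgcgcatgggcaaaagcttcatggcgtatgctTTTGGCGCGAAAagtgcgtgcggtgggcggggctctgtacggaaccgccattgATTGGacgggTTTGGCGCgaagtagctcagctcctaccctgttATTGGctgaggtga

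Birc5 held a CHR match (TTTAAA) 215 bases before the start and no CCAAT box. Ccnb2 held a CHR match (TTTGAA) 162 bases before the start and CCAAT boxes 83, 50 and 17 bases before it. Cdc20 held a CHR match (TTTGAA) 13 bases before the start, between CCAAT boxes at 49 and 4 bases. Mcm6 held E2F matches 103, 99 and 40 bases before the start, the first pair of them overlapping on opposite strands, and CCAAT boxes (read as ATTGG on this strand) at 53 and 10 bases; its RefSeq start lies upstream of the gene start in the deposited table.

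Across the mitosis genes with a promoter, 14 of 21 held a CHR match (TTTGAA or TTTAAA; 66.7%), against 4 of 13 replication genes (30.8%) and 25.2% of all 32851 promoters in the RefSeq table. The CCAAT box was found in 19 of 21 mitosis genes (90.5%), 8 of 13 replication genes (61.5%) and 33.8% of all promoters, and both elements together in 13 of 21 (61.9%), 2 of 13 (15.4%) and 8.78%. An E2F match (TTTCCCGC, TTTGGCGC, TTTGCCGC or TTTCGCGC) was found in 4 of 13 replication genes (Cdc6, Mcm5, Mcm6 and Mcm7; 30.8%), 1 of 21 mitosis genes (Cdk1; 4.76%) and 1.86% of all promoters. In the wider lists of further cell cycle genes described below, a CHR match was found in 29 of 65 other mitosis genes (44.6%) and 10 of 45 other replication genes (22.2%). The CCAAT box was found in 39 of 65 (60%) and 27 of 45 (60%), the same share in both lists. An E2F match was found in 5 of 65 (7.69%) and 10 of 45 (22.2%). These shares are descriptions of letters in a window and were not tested.

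Between genotypes, most of the 40 genes did not pass the test, which does not show that their levels were equal. Birc5, which encodes survivin, a subunit of the chromosomal passenger complex that corrects spindle attachments, was the only one to pass the test, and it was higher in Zeb2+/-. In the limma fit over 12190 genes (Benjamini-Hochberg adjusted p below 0.05), 395 genes were called (3.24%), 57 of them higher (0.468%) and 338 lower (2.77%) in Zeb2+/-. Of the 40 genes, 1 was called higher and 0 lower. At an unadjusted p below 0.05 the count was 2 of 40, both higher (Birc5 and Ccne1), where 18.9% of all tested genes lay below it (10% higher, 8.91% lower), and by voom on the rebuilt reads 0 of 40 were called. Log2 fold changes ran from -0.43 (Kif11) to 0.75 (Birc5), with standard errors of 0.12 to 0.38, and the 95% interval of the difference stayed within 1 log2 unit of 0 for 37 of the 40 genes.

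**Figure D1:**
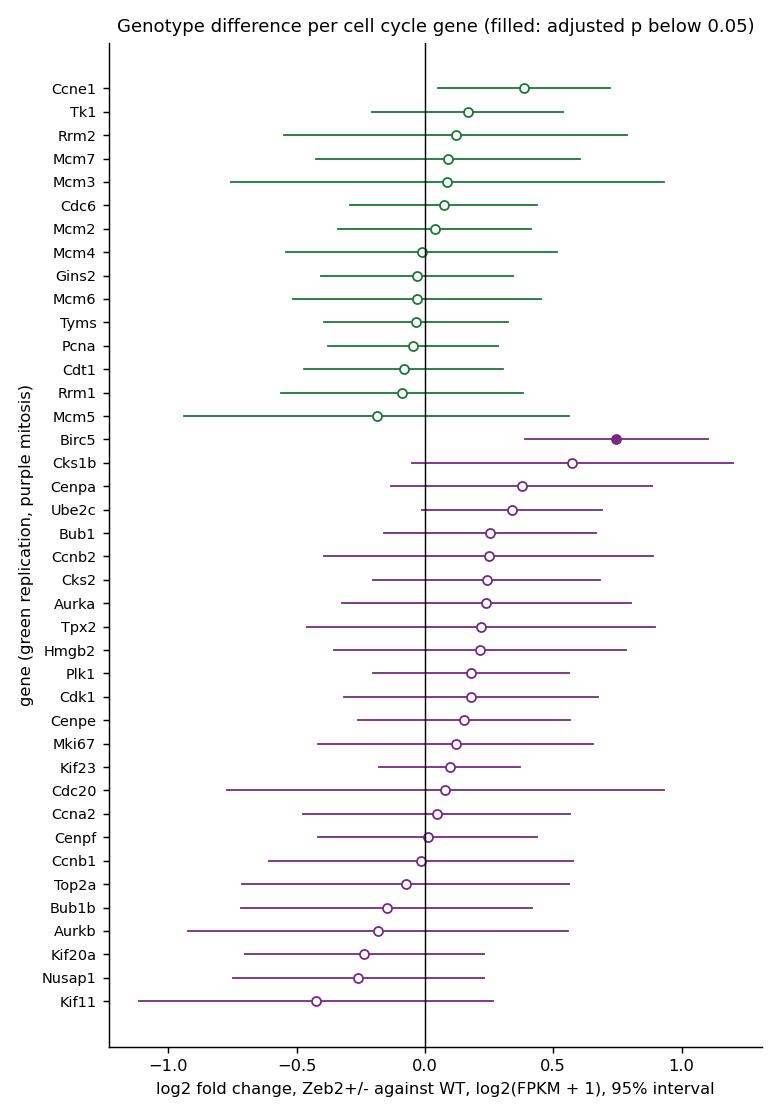
Log2 fold change of each cell cycle gene between Zeb2+/- and WT on the log2(FPKM + 1) scale (x axis, points) with its 95% interval (lines), replication genes in green and mitosis genes in purple. Birc5, at 0.75, is the filled point with an adjusted p below 0.05; the intervals of all the others except Ccne1 cross 0.

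Among the 15 replication genes, none was called in either direction, by limma or by voom, and 1 had an unadjusted p below 0.05 (Ccne1). The fold change had a positive value for 7 and a negative value for 8, and the median log2 fold change was -0.01, beside 0.002 for all 12190 genes; under other scalings 6 to 11 of the 15 had a positive value. The Mcm2 to Mcm7 helicase subunits had log2 fold changes of -0.19 to 0.09, and their adjusted p was 0.811 or more.

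Ccne1, cyclin E1, which partners Cdk2 at the G1 to S transition, was at 1.97, 2.59, 1.58 and 2.61 FPKM in WT libraries 1 to 4 and at 3.70, 3.19, 2.52 and 3.19 FPKM in Zeb2+/- libraries 1 to 4. Only Zeb2+/- library 3 fell inside the WT range. The log2 fold change was 0.39 (SE 0.15, 95% interval 0.05 to 0.72), with an unadjusted p of 0.0281 and a limma adjusted p of 0.207. Pcna, the sliding clamp of the replicative polymerases, had the highest level of the 40 genes per length. It was at 46.6, 45.2, 50.5 and 51.1 FPKM in WT and at 53.2, 43.3, 37.8 and 54.8 FPKM in Zeb2+/-. Zeb2+/- libraries 1 and 4 lay above the WT range and libraries 2 and 3 below it, and the log2 fold change was -0.05 (95% interval -0.38 to 0.29).

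Mcm6, a helicase subunit, was at 16.0, 15.2, 14.6 and 16.5 FPKM in WT and at 20.7, 15.4, 9.26 and 17.997 FPKM in Zeb2+/-. Mcm5, another subunit, was at 8.97, 7.72, 9.39 and 9.53 FPKM in WT and at 12.0, 8.003, 3.02 and 11.0 FPKM in Zeb2+/-. In both genes libraries 1 and 4 exceeded every WT library and library 3 lay below every one. The log2 fold changes were -0.03 for Mcm6 (95% interval -0.51 to 0.45) and -0.19 for Mcm5 (-0.94 to 0.56). Cdt1, the licensing factor that brings the helicase to origins, was at 8.26, 8.82, 8.84 and 7.87 FPKM in WT and at 8.58, 10.2, 5.23 and 8.44 FPKM in Zeb2+/-. Here library 2 was the highest and library 3 the lowest of the 8.

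Among the nucleotide enzymes, Rrm2, the small subunit of ribonucleotide reductase, was at 7.94, 8.92, 6.28 and 8.24 FPKM in WT and at 14.6, 7.06, 4.47 and 11.1 FPKM in Zeb2+/-, a log2 fold change of 0.12 (95% interval -0.55 to 0.79). Its highest and lowest values of the 8 were both Zeb2+/- libraries, 1 and 3. Tk1, the thymidine salvage kinase, was at 5.33, 4.98, 4.82 and 4.35 FPKM in WT and at 6.86, 5.79, 3.70 and 6.46 FPKM in Zeb2+/-, with 3 libraries above the WT range and library 3 below it (log2 fold change 0.17, 95% interval -0.21 to 0.54). Rrm1, the large reductase subunit, and Tyms, thymidylate synthase, had log2 fold changes of -0.09 and -0.04. The remaining origin factors, Cdc6 and the GINS subunit Gins2, had 0.07 and -0.03.

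Among the 25 mitosis genes, 1 was called higher and 0 lower. The fold change had a positive value for 18 and a negative value for 7, with a median of 0.15, and under other scalings 15 to 19 had a positive value; 50.3% of all tested genes had one. Without Zeb2+/- library 3 the median was 0.34 and 3 genes were called higher (Aurka, Birc5 and Ccnb2), and without Zeb2+/- library 1 the median was 0.02. For the replication genes the corresponding medians were 0.19 and -0.11. The values of both groups thus depended on which of these libraries was included.

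Birc5 was at 3.68, 5.15, 4.28 and 5.27 FPKM in WT libraries 1 to 4 and at 11.1, 7.47, 6.99 and 8.18 FPKM in Zeb2+/- libraries 1 to 4. Every Zeb2+/- library exceeded every WT library; no other of the 40 genes was without overlap, where 14.5% of all tested genes were (7.65% higher, 6.87% lower). The mean rose from 4.60 ± 0.750 FPKM to 8.44 ± 1.86 FPKM (SD, n = 4 per genotype), a 1.84-fold difference. The log2 fold change was 0.75 (SE 0.16, 95% interval 0.39 to 1.10, limma adjusted p = 0.0385). The gene lies at chromosome 11, 117849251 to 117855743, plus strand (GRCm38), and no gene in the deposited table overlapped it. The call was lost without any 1 WT library (adjusted p of 0.132, 0.0802, 0.120 and 0.0741 without libraries 1 to 4), without Zeb2+/- library 2 (0.0656) or 4 (0.0834), under TPM (0.192) or median of ratios scaling (0.0688) and by voom (0.199), while the direction held in all 22 alternatives. The mitochondrial and marker levels above separated the genotypes in the same libraries, and their part in this difference was not tested.

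Arhgef39, a guanine nucleotide exchange factor listed with the further mitosis genes below, was the other cell cycle gene called higher. Of the genes around Birc5 in the passenger complex, Aurkb, its kinase, was at 5.51, 5.08, 5.41 and 6.03 FPKM in WT and at 7.65, 6.07, 1.62 and 5.72 FPKM in Zeb2+/-. Its log2 fold change was -0.18 (95% interval -0.92 to 0.56). Aurkb and the genes marked in the next paragraphs as extremes were singled out after their values were seen.

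Ube2c, the ubiquitin-conjugating enzyme of the anaphase-promoting complex, was at 11.0, 11.6, 11.3 and 14.1 FPKM in WT and at 16.8, 16.5, 11.3 and 17.8 FPKM in Zeb2+/-. Zeb2+/- libraries 1, 2 and 4 exceeded the WT range and library 3 lay within it (log2 fold change 0.34, 95% interval -0.01 to 0.69, adjusted p = 0.281). Cks1b, a small cofactor of cyclin-dependent kinases, was at 4.30, 6.23, 4.97 and 8.63 FPKM in WT and at 16.0, 7.55, 6.39 and 9.07 FPKM in Zeb2+/-. It was the gene most variable within WT, and its log2 fold change was 0.57 (95% interval -0.05 to 1.20, adjusted p = 0.301). Its paralog Cks2 was at 20.6, 22.0, 14.96 and 22.9 FPKM in WT and at 30.2, 22.6, 17.3 and 26.4 FPKM in Zeb2+/-, and only libraries 1 and 4 exceeded WT (log2 fold change 0.24).

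Cenpa, the centromeric histone H3 variant, was at 2.86, 3.85, 2.59 and 2.80 FPKM in WT and at 5.93, 5.01, 2.27 and 4.32 FPKM in Zeb2+/- (log2 fold change 0.38, 95% interval -0.13 to 0.88). Mki67, which coats mitotic chromosomes and is the common proliferation marker, was at 14.5, 14.3, 13.9 and 11.6 FPKM in WT and at 21.1, 13.4, 8.89 and 18.7 FPKM in Zeb2+/-. Zeb2+/- libraries 1 and 4 were above the WT range, library 2 inside it and library 3 below it, with a log2 fold change of 0.12 (95% interval -0.42 to 0.66). Ccnb2, cyclin B2, was at 12.3, 12.1, 12.0 and 14.2 FPKM in WT and at 20.6, 20.1, 7.33 and 17.1 FPKM in Zeb2+/-. With library 3 its log2 fold change was 0.25 (adjusted p = 0.693), and without it the gene was called higher (adjusted p = 0.0432). Hmgb2, an abundant chromatin protein of dividing cells, was at 25.6, 28.6, 25.8 and 29.4 FPKM in WT and at 48.6, 29.3, 18.9 and 37.9 FPKM in Zeb2+/- (log2 fold change 0.21).

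The lowest value belonged to Kif11, the kinesin that pushes spindle poles apart, at 8.49, 9.49, 7.29 and 9.76 FPKM in WT and at 7.78, 7.60, 2.54 and 9.19 FPKM in Zeb2+/-. Library 3 alone lay outside the WT range, and the log2 fold change was -0.43 (95% interval -1.12 to 0.26, adjusted p = 0.498). The other motors Kif20a and Kif23, of the central spindle, had -0.24 and 0.10. The checkpoint kinases Bub1 and Bub1b had 0.25 and -0.15, and Plk1, the Polo kinase, and Aurka, the spindle pole Aurora kinase, 0.18 and 0.24. Cyclins and their kinase were close to 0 or above it, with -0.01 for Ccnb1, 0.04 for Ccna2 and 0.18 for Cdk1. Top2a, the topoisomerase that untangles sister chromatids, had -0.08, the spindle proteins Tpx2 and Nusap1 had 0.22 and -0.26, and the kinetochore proteins Cenpe and Cenpf 0.15 and 0.01. None of these 14 genes had an adjusted p below 0.05.

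**Figure D2:**
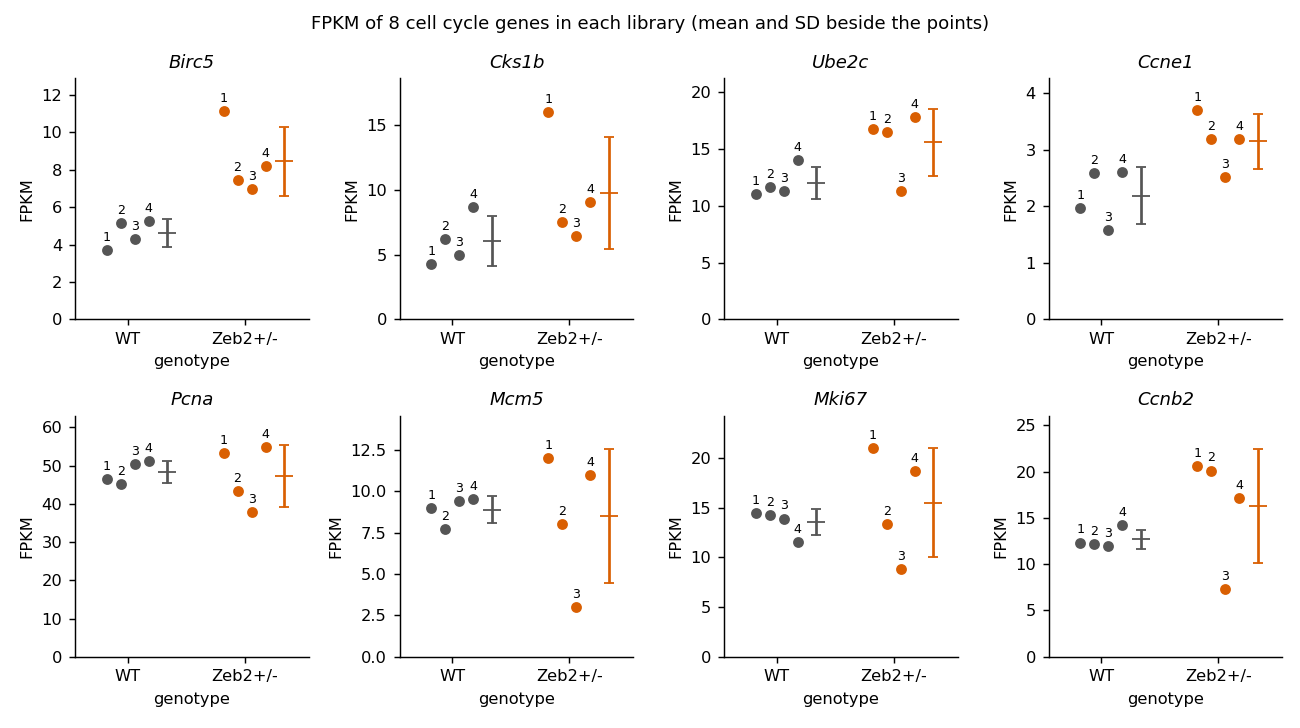
FPKM (y axis, linear, from 0) of 8 cell cycle genes in each library, numbered, with the mean and SD of 4 libraries beside each genotype. The Zeb2+/- points of Birc5 all lie above WT, while those of Mcm5, Mki67 and Ccnb2 lie on both sides of it, with library 3 lowest.

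The spread between libraries was larger in Zeb2+/- than in WT for most of these genes, and its tie to genotype was not tested. WT libraries were close to one another in these genes, and Zeb2+/- libraries were far apart. The SD over libraries, on the log2(FPKM + 1) scale, was larger in Zeb2+/- for 39 of 40 genes (14 of 15 replication genes, 25 of 25 mitosis genes; the exception was Ccne1), where it was larger for 82.9% of all tested genes. The median SD of the 40 genes was 0.12 in WT and 0.47 in Zeb2+/-, beside 0.15 and 0.29 over all tested genes. The larger spread in Zeb2+/- was thus shared by most of the transcriptome, and whether it was larger still in the 40 genes was not tested.

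**Figure D3:**
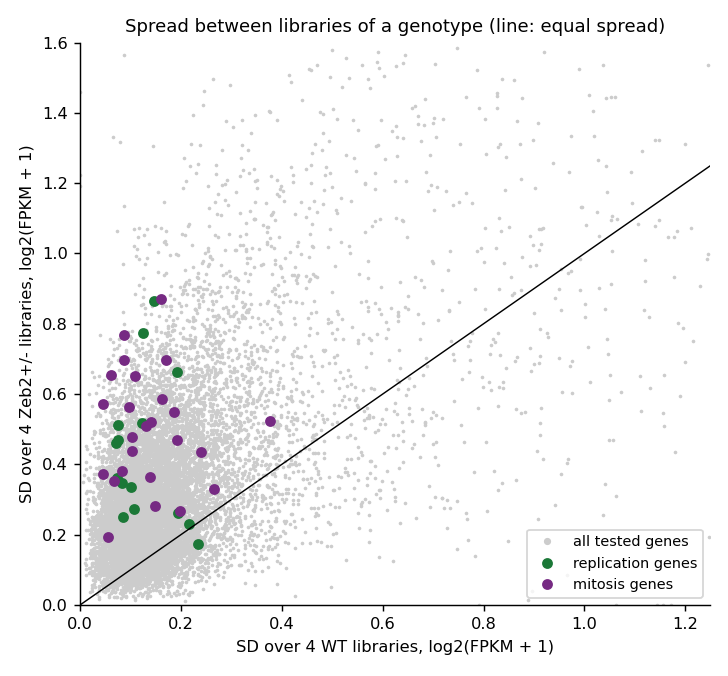
SD over the 4 Zeb2+/- libraries (y axis) against SD over the 4 WT libraries (x axis) of log2(FPKM + 1), for all tested genes (grey), replication genes (green) and mitosis genes (purple), with the line of equal spread; 152 of 12190 genes, none of the cell cycle genes, lie beyond the axes. Of the 40 cell cycle genes, 39 lie above the line.

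Between the highest and the lowest library of a genotype, the 40 genes differed by 1.09 to 2.01-fold in WT (median 1.23) and by 1.45 to 4.72-fold in Zeb2+/- (median 2.48); over all tested genes the medians were 1.31 and 1.75. The range exceeded 2-fold in Zeb2+/- for 28 of the 40 genes (38.7% of all tested) and in WT for 1, Cks1b (11% of all tested). The widest Zeb2+/- ranges belonged to Aurkb (4.72-fold), Cdc20, the anaphase activator (4.47-fold), Mcm3 (4.41-fold), Tpx2 (4.13-fold) and Mcm5 (3.98-fold). Cdc20 was at 12.5, 14.9, 13.9 and 11.3 FPKM in WT and at 23.1, 17.5, 5.15 and 17.0 FPKM in Zeb2+/-, and Mcm3 at 8.41, 8.15, 7.11 and 6.59 FPKM in WT and at 16.3, 5.50, 3.70 and 11.7 FPKM in Zeb2+/-. The narrowest belonged to Pcna (1.45-fold).

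The order of the Zeb2+/- libraries was largely shared between the genes. Zeb2+/- library 1 was the highest of all 8 libraries for 28 of 40 genes (24.5% of all tested) and Zeb2+/- library 3 the lowest of all 8 for 33 (19.1%). Library 1 was the highest and library 3 the lowest of the 4 Zeb2+/- libraries for 30 genes, 11 of replication and 19 of mitosis (15.3% of all tested). Library 3 was the lowest of the 4 for all but Gins2 and Kif23. Across all tested genes the most frequent order was the reverse in its ends, with library 3 highest and library 1 lowest (3, 2, 4, 1 in 2199 genes). The next most frequent was 1, 4, 2, 3 (1309 genes). The order 3, 2, 4, 1 is also that of the FPKM summed over all genes, 354907, 484018, 551183 and 429247 in Zeb2+/- libraries 1 to 4. The library totals implied by the FPKM, relative to the rebuilt totals, were 1.16, 0.832, 0.733 and 0.912. The part of this scaling in the shares over all tested genes was not tested.

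Set against WT, Zeb2+/- library 1 exceeded every WT library for 33 of the 40 genes (35.1% of all tested) and lay below every one for 1, Nusap1 (42.5%). Library 4 was above for 31 (27.2%) and below for 0 (26.3%), while library 3 was below for 34 (30.9%) and above for 1, Birc5 (40.6%). The 6 genes not below WT in library 3 were Ccne1, Birc5, Kif23, Ube2c, Cks1b and Cks2. On the FPKM scale library 2 stood between. It was above every WT library for 17 genes (33.2%), 14 of mitosis and 3 of replication (Tk1, Cdt1 and Ccne1), and below for 7 (25.5%). The order 1, 4, 2, 3 from highest to lowest held for 10 replication and 10 mitosis genes (1309 of all 12190 tested), and the order 1, 2, 4, 3 for 1 replication and 9 mitosis genes.

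**Figure D4:**
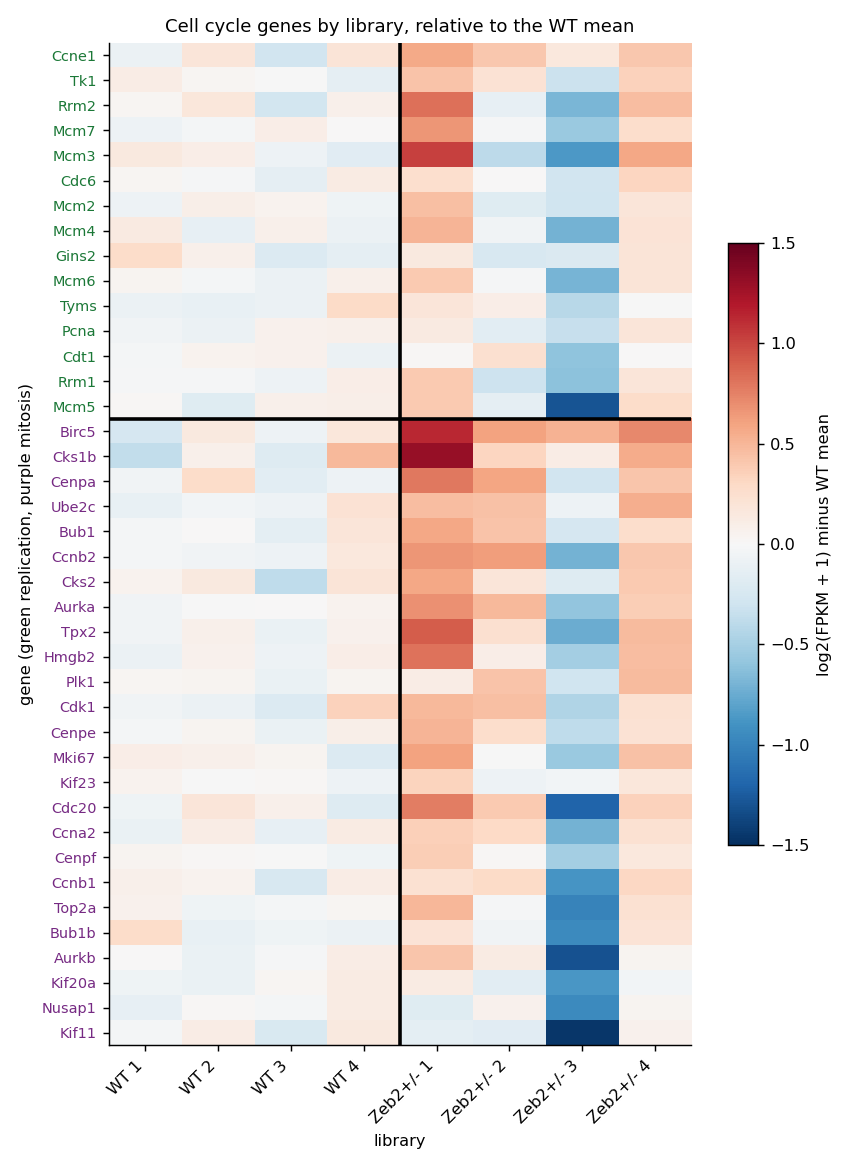
Heat map of log2(FPKM + 1) minus the WT mean (colour, red above and blue below) for each cell cycle gene (rows, replication genes in green above the line, mitosis genes in purple) in each library (columns). WT columns are pale; Zeb2+/- library 1 is the highest of 8 for 28 of 40 genes and library 3 the lowest for 33.

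Summed over the 40 genes, the level was 329.1, 337.9, 318.3 and 351.7 FPKM in WT libraries 1 to 4 and 488.2, 367.4, 219.6 and 422.7 FPKM in Zeb2+/- libraries 1 to 4. Per 1000000 assigned reads, the sums were 1226, 1216, 987.5 and 1201 in WT and 2151, 1132, 585.2 and 1466 in Zeb2+/-. On both scales Zeb2+/- libraries 1 and 4 were above the WT range and library 3 below it. Library 2 was above the WT range in FPKM and inside it per assigned reads. Its mitosis genes alone summed to 736.4 per 1000000 assigned reads, inside the WT range of 586.5 to 748.1. The replication genes summed to 131.1 to 137.6 FPKM in WT and to 180.0, 126.3, 89.1 and 160.4 FPKM in Zeb2+/-, and the mitosis genes to 184.6 to 214.1 FPKM in WT and to 308.2, 241.1, 130.4 and 262.3 FPKM in Zeb2+/-. The ratio of the mitosis to the replication sum was 1.38 to 1.58 in WT and 1.71, 1.91, 1.46 and 1.64 in Zeb2+/-, highest in library 2 and within the WT range in library 3. In bulk tissue, fewer dividing cells and less RNA of these genes per cell cannot be told apart.

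Marker levels of other cell types moved between the same libraries. The summed level of 15 B cell markers was 51.5, 73.0, 11.0 and 9.602 FPKM in WT and 242.4, 7.23, 4.23 and 157.5 FPKM in Zeb2+/-, so Zeb2+/- libraries 1 and 4, which were high in cell cycle genes, were also high in B cell markers. None of the 14 tested markers was called, and 8 of the 15, among them the defining markers Ms4a1 and Pax5, were at 0 in at least 1 library. Germinal centre markers (11 genes) summed to 61.8 to 69.0 FPKM in WT and to 103.8, 61.1, 54.2 and 99.9 FPKM in Zeb2+/-. Within WT the B cell sum ranged from 9.602 to 73.0 FPKM while the sum of the 40 genes stayed between 318.3 and 351.7 FPKM. Zeb2+/- libraries 2 and 3 were both low in B cell markers, while their cell cycle sums were 367.4 and 219.6 FPKM.

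Crypt and stem cell markers (18 genes) summed to 230.8 to 288.5 FPKM in WT and to 211.4, 239.8, 121.5 and 193.9 FPKM in Zeb2+/-, lowest in library 3. Olfm4 was the largest part of this sum, at 142.1 to 194.9 FPKM in WT and 111.3, 155.1, 61.3 and 112.4 FPKM in Zeb2+/-. Per 1000000 assigned reads the list summed to 764.8 to 1061 in WT and to 1039, 804.1, 395.7 and 737.4 in Zeb2+/-. Library 1 was thus below the WT range in FPKM and inside it per assigned reads. Of the 13 tested, 0 were called by limma and 3 had a lower value at an unadjusted p below 0.05 (Olfm4, Sox9 and Slc12a2). Enterocyte markers (14 genes) ran the other way. They summed to 25799 to 37501 FPKM in WT and to 16283, 34051, 49899 and 29242 FPKM in Zeb2+/-, lowest in library 1 and highest in library 3, with none called. The part of any of these cell types in the spread of the cell cycle genes was not tested.

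**Figure D5:**
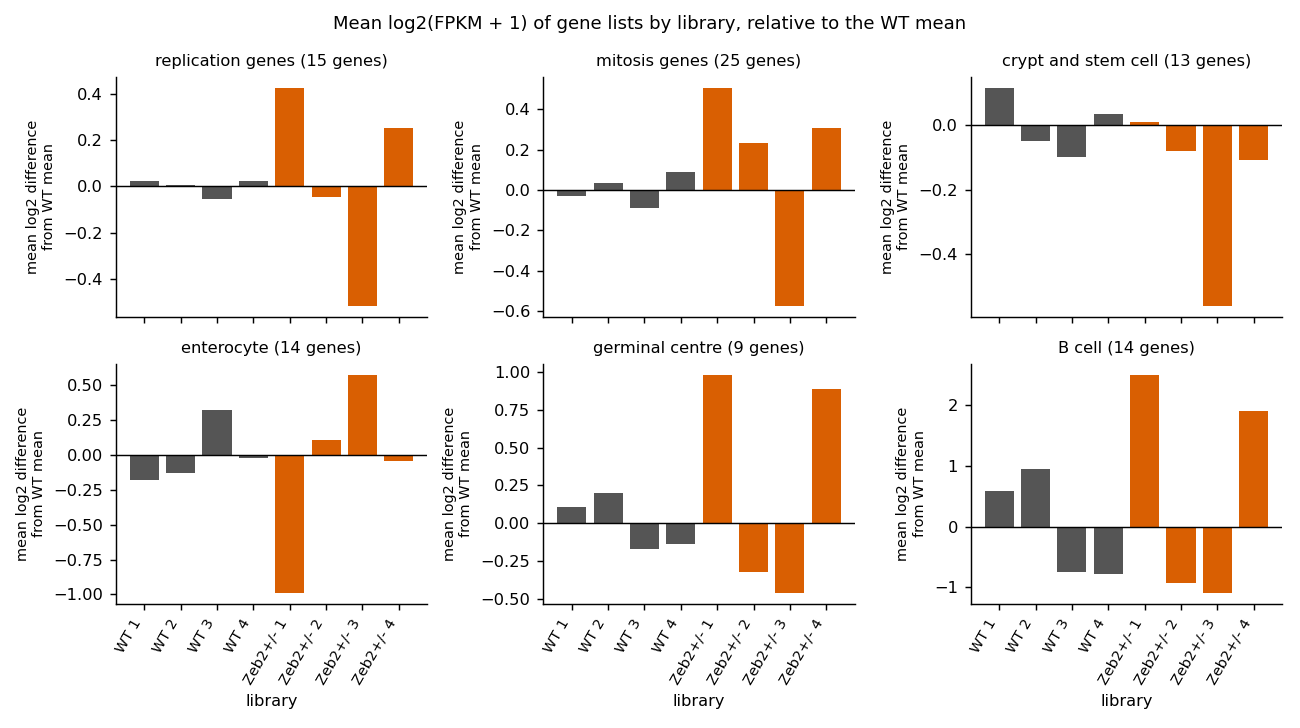
Mean log2(FPKM + 1) difference from the WT mean (y axis, own scale in each panel) of 6 gene lists in each library (bars; WT grey, Zeb2+/- orange). Replication and mitosis genes are highest in Zeb2+/- library 1 (0.42 and 0.50) and lowest in library 3 (-0.52 and -0.57), B cell and germinal centre markers are high in libraries 1 and 4, and enterocyte markers are lowest in library 1.

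Further cell cycle genes were read from the same limma fit. Of 49 tested among 56 other replication genes, 0 were called, with a median log2 fold change of 0.13, and at an unadjusted p below 0.05 there were 5, all higher, where 10% of all tested genes were higher, a share close to that of the list. Those of smallest p were Rfc5, a clamp loader subunit, at 4.02 to 4.66 FPKM in WT and 5.38 to 7.03 FPKM in Zeb2+/- (log2 fold change 0.46, adjusted p = 0.0547), Gmnn, the inhibitor of Cdt1, at 16.9 to 19.3 and 23.2 to 32.4 FPKM (0.53, adjusted p = 0.0636), and Gins1, a GINS subunit (0.52, adjusted p = 0.179).

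Of 68 tested among 82 other mitosis genes, 1 was called higher and 0 lower, with a median of 0.12. An unadjusted p below 0.05 in limma was reached by 7, all higher, a share close to the 10% of all tested genes that were higher. The 1 gene called was Arhgef39, at 4.16, 4.95, 3.58 and 4.70 FPKM in WT and at 10.8, 7.88, 11.0 and 7.93 FPKM in Zeb2+/-, so the groups did not overlap. Its log2 fold change was 0.95 (SE 0.14, adjusted p = 0.00825), and the call was lost under TPM scaling (0.0543) and by voom (0.0710). Zeb2+/- library 3, the lowest for most of the 40 genes, was the highest of the 8 for Arhgef39. In the list as a whole, library 3 was the lowest of the 8 for 51 of 68 genes (19.1% of all tested).

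Of 33 tested G1 regulators 0 were called by limma (median log2 fold change 0.01), and 1 was higher at an unadjusted p below 0.05. This was Lin37, a MuvB subunit, at 7.05 to 7.60 FPKM in WT and 8.71 to 12.4 FPKM in Zeb2+/- (log2 fold change 0.41, adjusted p = 0.109). Foxm1, which drives mitosis genes, was at 2.06 to 2.74 FPKM in WT and at 4.20, 2.51, 1.47 and 3.27 FPKM in Zeb2+/-; E2f1, the S phase activator, was at 1.90 to 2.33 FPKM in WT and at 3.43, 1.80, 1.30 and 2.92 FPKM in Zeb2+/-. Both were highest in Zeb2+/- library 1 and lowest in library 3. Ccnd1, cyclin D1 of the G1 phase, was at 5.97 to 7.14 FPKM in WT and at 5.14, 8.68, 1.07 and 6.92 FPKM in Zeb2+/-, and Myc was at 7.91 to 9.03 FPKM in WT and at 9.76, 10.6, 4.59 and 8.01 FPKM in Zeb2+/-. Both were highest in library 2 and lowest in library 3. Foxm1, E2f1, Ccnd1 and Myc were not picked by a rule. Of the 33 tested G1 regulators, library 3 was the lowest of the 8 libraries for 17 (19.1% of all tested genes). Library 1 was the highest and library 3 the lowest of the 4 Zeb2+/- libraries for 10 (15.3%), and Lin37 was highest in library 3.

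Among the brakes on the cycle, of 9 tested inhibitors of cyclin-dependent kinases 0 were called (median 0.16; 1 higher, Cdkn2b, and 1 lower, Wee1, the kinase that holds Cdk1 inactive, at an unadjusted p below 0.05, with adjusted p of 0.218 and 0.148). Cdkn1a, the p21 inhibitor, was at 46.0 to 76.2 FPKM in WT and at 30.1, 61.0, 82.9 and 55.8 FPKM in Zeb2+/-, the reverse of the cell cycle genes in its highest and lowest Zeb2+/- library. Of 16 tested p53 targets, 1 was called lower and 0 higher (median -0.06). At an unadjusted p below 0.05, 2 were higher and 3 lower. Of the lower ones, Plk2 was at 1.59 to 2.91 FPKM in WT and 1.01 to 1.34 FPKM in Zeb2+/-, without overlap (log2 fold change -0.57, limma adjusted p = 0.0790). The higher ones were Gadd45a, a stress gene that can arrest cells in G2, at 24.6 to 33.95 FPKM in WT and 40.4 to 72.0 FPKM in Zeb2+/- (log2 fold change 0.69, adjusted p = 0.121), and Bax, which opens mitochondria in apoptosis, at 14.5 to 18.2 FPKM in WT and 20.04 to 29.2 FPKM in Zeb2+/- (0.49, adjusted p = 0.123). The gene called was Trp53inp1, a p53-induced stress gene, at 10.5, 6.65, 7.80 and 9.51 FPKM in WT and at 5.45, 2.69, 3.03 and 4.52 FPKM in Zeb2+/-, without overlap (log2 fold change -0.98, SE 0.20, adjusted p = 0.0354). The call was lost without WT library 1 (0.125), 3 (0.0842) or 4 (0.112) and without Zeb2+/- library 2 (0.0772), 3 (0.0880) or 4 (0.0573). It was also lost under TPM scaling (0.0886), median of ratios scaling (0.0501), by voom (0.109) and without a filter (0.0793), and the direction held in all 22 alternatives. Of 11 tested antiproliferative genes 0 were called (median -0.04); the smallest p belonged to Btg1, at 27.8 to 31.3 FPKM in WT and 32.2 to 43.0 FPKM in Zeb2+/- (log2 fold change 0.39, adjusted p = 0.150).

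Several of the 40 genes share sequence or position with another gene, and their values are uncertain to that extent. Ccnb1, Ccnb2 and Ube2c have pseudogenes with levels of up to 1.01, 0.890 and 1.82 FPKM. Cdc20 overlaps Elovl1 (up to 45.1 FPKM) and Mcm7 overlaps Cops6 (up to 33.9 FPKM), both on the opposite strand. The libraries were directional, but no source used here gives the strand setting of the counting.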

How the data were processed

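Poly(A)-selected, directional RNA-seq of duodenal tissue was deposited as 1 table of FPKM for 54532 genes in 8 libraries. Per the submitters' processing notes, HISAT2 2.0.5, featureCounts 1.5.0-p3 and the build GRCm38 (mm10) were used; no source used here says what each did to make the FPKM values. Multiplying the deposited FPKM by gene length and dividing by the worth of 1 read gave whole reads for 100% of values above 0 (tolerance 0.01 read). These reads were used for depth and for voom; 1 read of a 1 kilobase gene was worth 0.0538 to 0.0885 FPKM. The total that this step implies was 0.733 to 1.16 times the rebuilt total, so the authors' FPKM carry a further scale factor per library; TPM scaling removes it, and if it is not a sound normalization the adjusted p-values here may be too small.

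Log2(FPKM + 1) values were fitted with limma 3.58.1 in R 4.3.3 (lmFit, eBayes with trend and robust), genotype the only term, on the 12190 genes averaging 1 FPKM or more, and called at a two-sided Benjamini-Hochberg adjusted p below 0.05. Fold changes on this scale understate those of low genes. The fit was tested on simulated data whose library scales matched those of the FPKM; with scales that did not match, false calls exceeded the nominal rate. The genes and lists were chosen with earlier results of these data known. Named with every library's value are genes called and, in each group, the 4 of smallest p and the 4 of highest mean. Foxm1, E2f1, Ccnd1, Myc and Cdkn1a were named outside this rule. Motif spellings were kept after the shares of promoters holding them were seen. Replicate numbers did not pair the libraries: same-number correlations were 0.24, -0.16, 0.33 and -0.19. Alternatives were pseudocounts of 0.1 and 5, other filters, scalings and models, a fold minimum, and leaving libraries out.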

Additional observations from a re-analysis of the deposited data

Results flagged for a closer look

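In 7 of 88 groups of 4 libraries, 1 library lay far from the other 3 (gap over range above Dixon's 95% critical value for 4 samples; chance gives about 1 group in 20). All are cell cycle genes. In Zeb2+/- library 3, Ccnb1, cyclin B1, was at 2.48 FPKM, with the others at 6.57 to 7.01 FPKM, and Ccna2, cyclin A2, was at 5.70 FPKM, with the others at 11.9 to 13.1 FPKM. In WT library 3, Ccnb1 was at 4.46 FPKM against 5.72 to 5.94 FPKM, and Plk1 was at 9.90 FPKM against 10.9 to 11.0 FPKM. In WT library 4, Tyms was at 3.91 FPKM against 2.71 to 2.78 FPKM, and Ccnb2 was at 14.2 FPKM against 12.0 to 12.3 FPKM. In WT library 1, Bub1b was at 5.75 FPKM against 4.14 to 4.30 FPKM. Both Zeb2+/- gaps are low values of library 3, and the 5 WT gaps fall in 3 libraries and in both directions.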

How the results depend on the processing

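The counts over all genes, 57 higher and 338 lower, became 20 higher without a filter, 29 and 128 with a mean FPKM of at least 5, 16 higher with TPM scaling, 94 higher with quantile normalization, 493 and 694 with array weights, 15 and 187 with voom, 16 higher with a fold minimum of 1 log2 unit, and 13 to 99 higher and 205 to 388 lower without 1 library. The replicate number as a block, which did not pair the libraries, gave 23 higher and 0 of the 40 cell cycle genes called higher (Birc5 adjusted p = 0.115). Of the 40 genes, 1 was called higher in the main test. This became 0 without a filter, with TPM or median of ratios scaling, with voom and with the fold minimum, 3 with array weights (Birc5, Plk1 and Ube2c), and 0 to 3 without 1 library. Over the 22 alternatives the log2 fold change of Birc5 was 0.48 to 0.87, its adjusted p was 0.00701 to 0.199, and it was no longer called in 14; 35 of the 40 genes were called in none, and the sign changed in at least 1 for 31. Positive values among the replication genes (7 of 15) became 4 of the 9 left with a mean FPKM of at least 5, and among all 15 became 11 with quantile normalization, 14 with array weights and 3 to 15 without 1 library; the medians without 1 library were -0.11 to 0.19 for replication and 0.02 to 0.34 for mitosis genes. Chosen after seeing the data, leaving out Zeb2+/- libraries 1 and 3 gave 13 replication genes with a positive value and 0 called. Leaving out libraries 1 and 4, those high in B cell markers, gave 265 genes higher and 560 lower, 0 of the 40 called, 1 replication and 6 mitosis genes with a positive value, and a mitosis median of -0.21. The cause of these changes was not tested. Each of the 40 genes had 40 reads or more in each library; whether depth or the number of libraries limits the calls was not tested.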
